A study of Homo sapiens with 6 samples.

Results

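The genes described here are 10 members of the human mono-ADP-ribosylation system: the enzymes PARP4, PARP6, PARP8, PARP10, PARP11, PARP12 and PARP14, the macrodomain protein PARP9 with its ubiquitin ligase partner DTX3L, and ZC3HAV1, the zinc finger antiviral protein also called ZAP or PARP13. They were taken by gene symbol, and all 10 were found among the 39396 symbols of the deposited count table. The table holds 6 RNA sequencing libraries, all labelled as RKO, an established colorectal carcinoma line of genotype WT. Olaparib libraries (3 replicates) came from cells given olaparib, a drug that blocks the DNA damage enzymes PARP1 and PARP2, and DMSO libraries (3 replicates) from cells given the solvent. The sources used here give neither the dose nor the length of treatment. Nothing says that replicates were separate cultures, and the p-values therefore reflect the spread between libraries alone, which may be technical.

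Mono-ADP-ribosylating PARPs attach a single ADP-ribose unit from NAD to proteins or nucleic acids, in contrast to PARP1, which builds chains. Several of them are induced by interferon and restrict viruses, and viruses of several families carry macrodomains that remove the mark. Interferon reaches many of its target genes through a factor that contains STAT2 and IRF9 and binds a DNA element called the ISRE (interferon-stimulated response element).

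The libraries held 28715138 to 31387990 counts with olaparib and 29544974 to 42423785 with DMSO. Of 17078 genes tested, 75.7% were called different between the groups, 35.4% higher and 40.3% lower in olaparib, so a call by itself sets no gene apart. Genes typical of embryonic kidney and neuronal cells, a combination known from HEK293 cells, differed between groups that share the label RKO: 9 of 10 were lower in olaparib and 1 (PAX8) was higher. Their summed level was 28.3 to 31.8 CPM (counts scaled to a library of 1000000) in olaparib and 302 to 523 CPM in DMSO, and NEFL, LIN28B and PAX2 had no count in any olaparib library. Of 14 markers of colorectal epithelium, 3 were called higher and 3 lower, with summed levels of 817 to 1098 CPM in olaparib and 276 to 340 CPM in DMSO. CDX1 had no count in any library, CDX2 and GPA33 had none with olaparib, KRT19 had none with DMSO, and VIL1, KRT20, CDH17 and LGALS4 stayed below 1 CPM in both groups. A difference in cell source and the effect of treatment cannot be told apart in these groups, so every direction below is between libraries as labelled.

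The promoters of PARP14, of the divergent pair DTX3L and PARP9, and of PARP12 are shown because all held an ISRE core, and that of PARP11 because it held none and belongs to the member without a count in olaparib. Windows run from 250 bases before to 50 bases after the gene's start (RefSeq, GRCh38.p14), and 8 of the 10 members had at least 1. They are printed on the gene's own strand, with matches to the ISRE core, GAAANNGAAA or its reverse complement TTTCNNTTTC, in capitals. The windows are chr3:122680589-122680888 (plus strand) for PARP14, chr3:122564088-122564387 (plus strand) for DTX3L, chr7:140062902-140063201 (minus strand) for PARP12 and chr12:3873350-3873649 (minus strand) for PARP11.
PARP14: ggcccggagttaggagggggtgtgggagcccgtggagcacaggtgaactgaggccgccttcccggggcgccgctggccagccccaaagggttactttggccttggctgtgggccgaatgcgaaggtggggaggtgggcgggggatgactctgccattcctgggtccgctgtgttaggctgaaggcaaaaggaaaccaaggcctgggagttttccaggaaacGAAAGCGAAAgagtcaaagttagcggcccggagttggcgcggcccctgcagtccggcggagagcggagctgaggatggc
DTX3L: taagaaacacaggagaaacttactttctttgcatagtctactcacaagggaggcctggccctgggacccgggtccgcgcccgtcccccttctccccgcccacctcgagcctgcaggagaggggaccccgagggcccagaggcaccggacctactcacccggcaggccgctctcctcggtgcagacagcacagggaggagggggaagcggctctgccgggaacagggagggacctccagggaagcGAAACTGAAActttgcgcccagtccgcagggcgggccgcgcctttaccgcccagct
PARP12: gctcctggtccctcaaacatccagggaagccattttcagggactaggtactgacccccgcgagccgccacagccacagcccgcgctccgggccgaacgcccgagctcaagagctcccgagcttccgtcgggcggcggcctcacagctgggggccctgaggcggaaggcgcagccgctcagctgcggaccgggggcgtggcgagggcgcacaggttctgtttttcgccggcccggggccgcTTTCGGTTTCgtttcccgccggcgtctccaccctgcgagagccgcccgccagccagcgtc
PARP11: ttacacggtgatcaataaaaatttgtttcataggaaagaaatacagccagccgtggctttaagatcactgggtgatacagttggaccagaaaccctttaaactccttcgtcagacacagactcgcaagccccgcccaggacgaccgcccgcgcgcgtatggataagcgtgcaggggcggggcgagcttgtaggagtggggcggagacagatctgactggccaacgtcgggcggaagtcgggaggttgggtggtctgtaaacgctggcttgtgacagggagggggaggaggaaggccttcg

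The match lay 29 to 20 bases before the start of PARP14 and ran directly up to the start of PARP12, over its last 10 bases. In DTX3L it spanned the start site itself. The nearer of the 2 listed PARP9 starts is 38 bases from that of DTX3L on the opposite strand, so the same 10 bases form the PARP9 match (TTTCAGTTTC on that strand, 41 to 32 bases before its start). No ISRE core was found in the windows of ZC3HAV1, PARP8, PARP6 and PARP11. Of all 35116 windows, 3.57% held an ISRE core. The GAS core of interferon gamma targets, TTCNNNGAA, which is its own reverse complement, was found in PARP14 and ZC3HAV1 and in 7.66% of all windows; no base of it overlapped the ISRE core of PARP14. A match describes letters only and shows no binding.

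Nearly all of the 10 listed members were higher in olaparib. With p-values adjusted after Benjamini and Hochberg over all tested genes (edgeR, quasi-likelihood test), 9 of the 10 members were called higher and 1, PARP11, was called lower; all 10 passed the filter on low counts. Of all tested genes, 35.4% were called higher and 40.3% lower. A rise of at least 2-fold was called for 7 members and for 22.0% of all tested genes. The median log2 fold change was 2.29 over the members and -0.09 over all tested genes, and the members' median is the same with PARP11 at its bound. In all 10 members the olaparib and DMSO libraries did not overlap, as was the case in 79.4% of tested genes. Olaparib lay above DMSO in 9 of them (37.3% of tested genes) and below in PARP11 (42.0%). In bulk RNA, fewer cells that express a gene and less RNA per cell cannot be told apart.

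**Figure D1:**
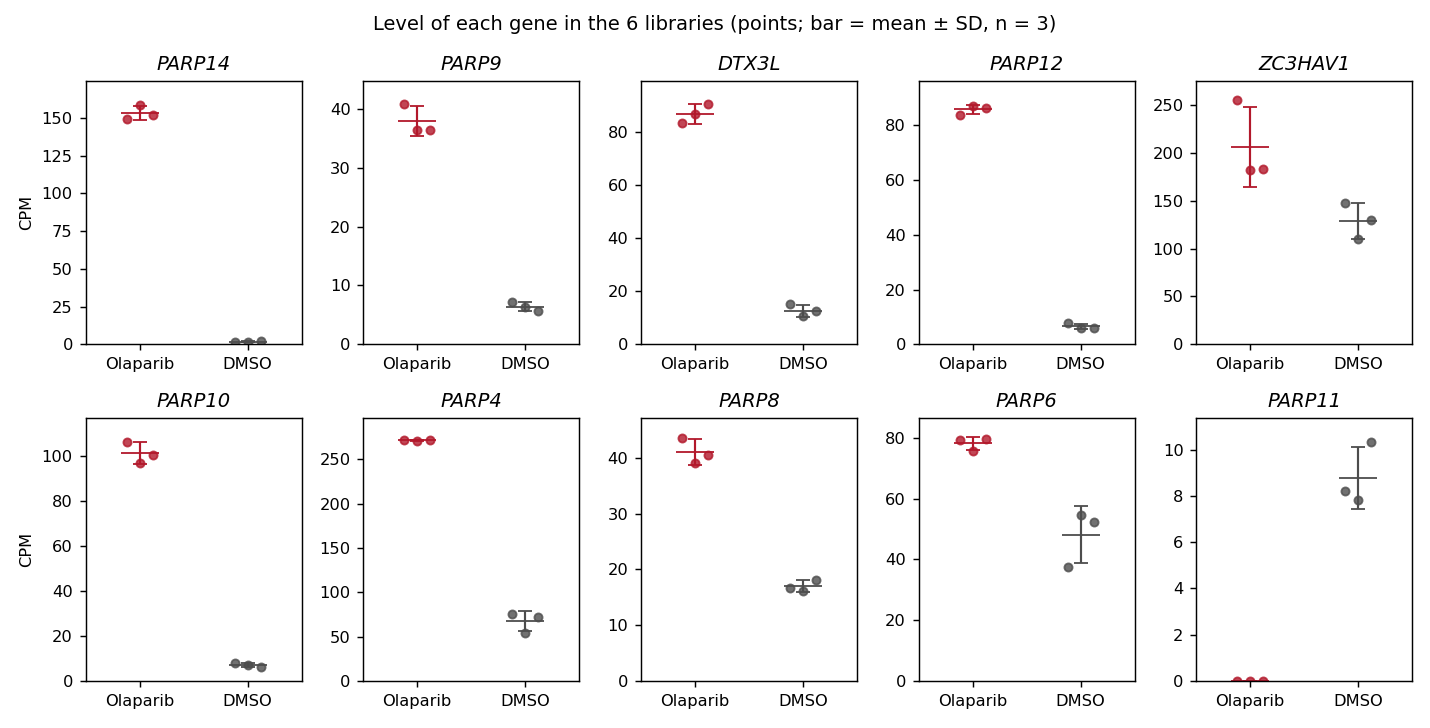
Level of each member in CPM (vertical axis, starting at 0, a scale of its own for each gene) in the 3 olaparib libraries (left, red) and the 3 DMSO libraries (right, grey); points are libraries and bars are mean ± SD. Olaparib libraries lie above DMSO libraries in 9 panels, and PARP11 is at 0 in all 3 olaparib libraries.

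PARP14, PARP9 and DTX3L lie together on chromosome 3, with 105.4 kb between DTX3L and PARP14 (gene positions are from GENCODE release 29 on hg38). PARP14 (chromosome 3, 122680618 to 122730840, plus strand) carries 3 macrodomains and a catalytic domain and is known from STAT6 and interferon signalling. It stood at 149, 158 and 152 CPM in the olaparib libraries, against 1.52, 1.25 and 2.01 CPM in the DMSO libraries. It was thus the member with the lowest CPM in every DMSO library, and no olaparib library came near the DMSO range. The log2 fold change was 6.56 ± 0.16 (SE, edgeR adjusted p = 7.57e-11), a 94.4-fold rise, and 0.972% of tested genes had a log2 fold change at least as high.

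PARP9 (chromosome 3, 122527924 to 122564577, minus strand) binds ADP-ribose through its macrodomains. It acts in complex with DTX3L (chromosome 3, 122564238 to 122575203, plus strand), a ubiquitin ligase that joins it at sites of DNA damage and in interferon responses. Exons of the pair share 217 bases on opposite strands. PARP9 stood at 40.9, 36.5 and 36.5 CPM in olaparib, against 7.17, 6.37 and 5.70 CPM in DMSO. DTX3L stood at 83.4, 86.8 and 90.6 CPM in olaparib, against 15.1, 10.5 and 12.5 CPM in DMSO. Both partners were therefore several times higher in every olaparib library, by 5.92-fold for PARP9 (log2 2.57 ± 0.14, edgeR adjusted p = 8.73e-09) and 6.82-fold for DTX3L (log2 2.77 ± 0.13, edgeR adjusted p = 4.03e-09).

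Ratios within a library show how far neighbours moved by unequal amounts. The log2 ratio of PARP9 to DTX3L was -1.19 ± 0.15 in olaparib and -0.93 ± 0.21 in DMSO (SD, n = 3 each), a difference of -0.26 (exact two-sided permutation test, p = 0.3, adjusted over 4 ratios 0.3), and the libraries of the groups overlapped. That of PARP14 to PARP9 was 2.0 ± 0.13 in olaparib and -1.73 ± 0.37 in DMSO, a difference of 3.73 with no overlap (exact permutation p = 0.1, adjusted 0.133). PARP14 thus exceeded PARP9 in CPM in each olaparib library and lay below it in each DMSO library. The smallest p that 3 against 3 libraries can give is 0.1, so no ratio could pass 0.05.

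PARP12 and ZC3HAV1 are paralogs with CCCH zinc fingers that bind RNA, 914 kb apart on chromosome 7. PARP12 (chromosome 7, 140023744 to 140063721, minus strand) is an active mono-ADP-ribosyltransferase of the Golgi and of stress granules that restricts several RNA viruses. Its level was 84.0, 87.2 and 86.4 CPM in olaparib, against 7.62, 5.93 and 6.08 CPM in DMSO. The olaparib libraries differed from each other by a few CPM while standing 13.1-fold above DMSO (log2 3.71 ± 0.13, edgeR adjusted p = 3.33e-10).

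ZC3HAV1 (chromosome 7, 139043520 to 139109719, minus strand) has lost catalytic activity and directs CpG-rich viral RNA to decay. It stood at 255, 182 and 183 CPM in olaparib, against 148, 110.3 and 129.5 CPM in DMSO. Replicate 1 was the highest library in olaparib and also in DMSO, and the gap between the lowest olaparib and the highest DMSO library was narrower than the spread within either group. ZC3HAV1 rose 1.60-fold (log2 0.68 ± 0.15, edgeR adjusted p = 0.00127), and without olaparib replicate 1 the log2 fold change was 0.50 (adjusted p = 0.006). In all tested genes, 29.1% had a log2 fold change at least as high. Its paralog ZC3HAV1L, which lies close to it, was 1.82-fold higher, at 18.96 ± 1.02 CPM in olaparib and 10.4 ± 3.68 CPM in DMSO (edgeR adjusted p = 0.00418). The log2 ratio of PARP12 to ZC3HAV1 was -1.24 ± 0.31 in olaparib and -4.20 ± 0.10 in DMSO, a difference of 2.96 with no overlap (SD, n = 3 each; exact permutation p = 0.1, adjusted 0.133).

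PARP10 (chromosome 8, 143977153 to 144012772, minus strand) is a mono-ADP-ribosyltransferase with RNA recognition and ubiquitin-interacting motifs. It stood at 106.5, 97.0 and 100.3 CPM in olaparib, against 8.07, 6.98 and 6.35 CPM in DMSO. Every olaparib library was over 10 times any DMSO library, for a 14.2-fold rise (log2 3.83 ± 0.12, edgeR adjusted p = 2.44e-10). Exons of PARP10 share 324 bases with GRINA and 197 bases with SPATC1 on the opposite strand, and no source used here says whether reads were counted by strand. The log2 ratio of PARP10 to PARP14 was -0.60 ± 0.11 in olaparib and 1.88 ± 0.37 in DMSO, a difference of -2.47 (SD, n = 3 each; exact permutation p = 0.1, adjusted 0.133). PARP14 was therefore above PARP10 in CPM in olaparib and below it in DMSO. This switch holds for CPM only, which are not scaled to gene length. Per kilobase of exon, PARP10 was above PARP14 in both groups. It stood at 16.8 against 14.6 CPM per kb in olaparib and at 1.18 against 0.152 CPM per kb in DMSO.

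PARP4 (chromosome 13, 24420926 to 24512810, minus strand) is the PARP of the vault, a large ribonucleoprotein particle of the cytoplasm. It stood at 272, 271 and 271 CPM in olaparib, against 75.5, 54.4 and 72.2 CPM in DMSO. The olaparib libraries were almost level, with a coefficient of variation of 0.215%, against 16.9% in DMSO. With 3 libraries per group these coefficients are imprecise, and their difference was not tested. PARP4 rose 4.03-fold (log2 2.01 ± 0.13, edgeR adjusted p = 3.63e-08). Its pseudogenes PARP4P1 and PARP4P2 held 10 and 38 counts over the olaparib libraries and 0 in DMSO, few beside the 23750 counts of PARP4 in olaparib and its 7986 counts in DMSO. The other vault genes of the list rose too: MVP, the major vault protein, by 11.4-fold (192 ± 7.11 CPM in olaparib, 16.9 ± 2.06 CPM in DMSO) and TEP1 by 2.23-fold (114.5 ± 6.60 CPM in olaparib, 51.2 ± 6.96 CPM in DMSO), with edgeR adjusted p = 2.9e-10 and 1.66e-06.

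PARP8 (chromosome 5, 50665899 to 50846522, plus strand) and PARP6 (chromosome 15, 72241181 to 72272999, minus strand) are less studied mono-ADP-ribosyltransferases. PARP6 is known from dendrite growth in neurons. PARP8 stood at 43.6, 39.1 and 40.5 CPM in olaparib, against 16.7, 16.2 and 18.2 CPM in DMSO, a rise of 2.41-fold (log2 1.27 ± 0.11, edgeR adjusted p = 6.07e-07). PARP6 stood at 79.4, 75.7 and 79.5 CPM in olaparib, against 37.5, 54.7 and 52.4 CPM in DMSO. DMSO replicate 1 was the lowest library for PARP6, which rose 1.62-fold (log2 0.70 ± 0.13, edgeR adjusted p = 0.000464). The log2 fold change of PARP6 was 0.53 without that library, and 28.5% of tested genes had a value at least as high as 0.70.

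PARP11 (chromosome 12, 3791047 to 3873448, minus strand) localises to the nuclear envelope and is known to promote loss of the interferon receptor subunit IFNAR1 through the ubiquitin ligase adaptor BTRC. It went the other way. It had no count in any of the 3 olaparib libraries, against 8.21, 7.82 and 10.3 CPM in the DMSO libraries (346, 232 and 457 counts). Against a floor of 3 counts over the olaparib group it was at least 260-fold lower (edgeR adjusted p = 4.24e-08). Among tested genes, 3.40% had no count in any olaparib library. PARP11-AS1, on the opposite strand, had 0 counts in olaparib and 26 in DMSO, with 0 bases of shared exon.

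**Figure D2:**
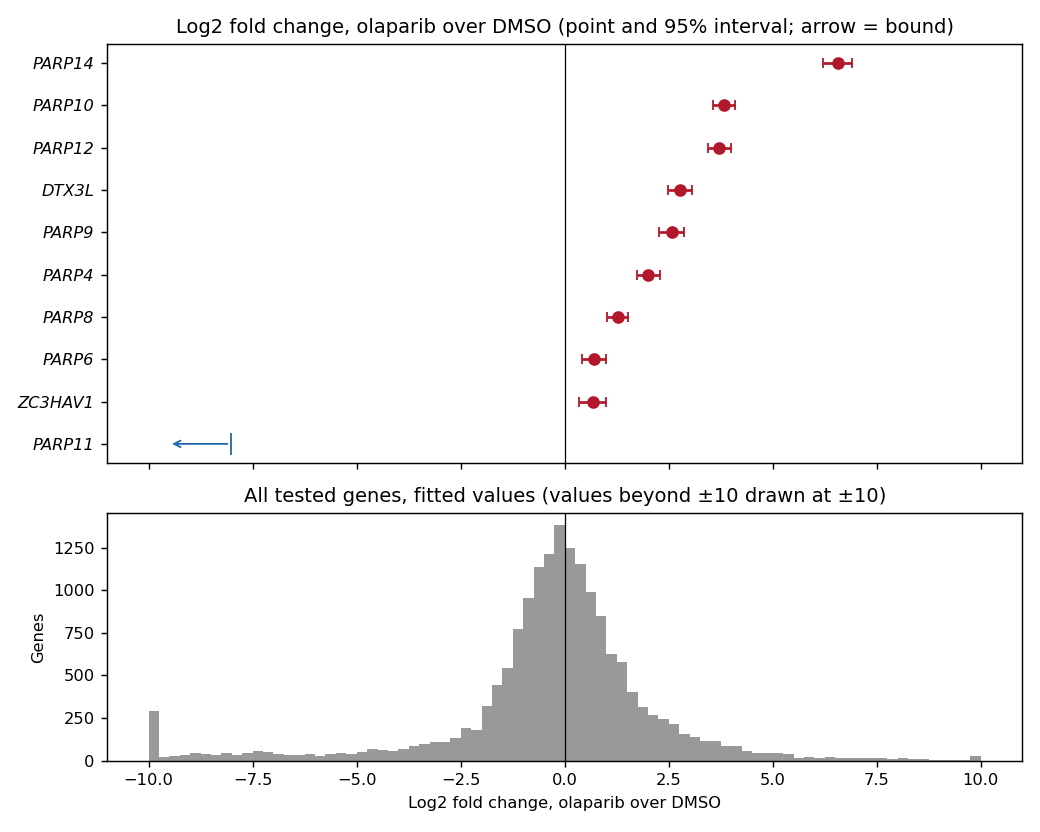
Upper panel, log2 fold change of olaparib over DMSO for each member with its 95% interval from edgeR, and an arrow starting at the bound of -8.02 for PARP11; lower panel, fitted log2 fold changes of all 17078 tested genes on the same horizontal axis, with values beyond 10 in either direction drawn at the ends. PARP14 at 6.56 lies far to the right of the bulk of genes, and ZC3HAV1 and PARP6 lie within it.

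Per kilobase of exon (GENCODE release 29), which allows levels of different genes to be set side by side, the order of the members differed between the groups. In olaparib, PARP4 was the most abundant at 44.6 ± 0.096 CPM per kb, followed by ZC3HAV1 at 25.1 ± 5.07, PARP10 at 16.8 ± 0.798 and DTX3L at 14.8 ± 0.617 CPM per kb. PARP14 at 14.6 ± 0.451 CPM per kb overlapped with DTX3L, and PARP9 at 4.25 ± 0.285 overlapped with PARP8 at 4.08 ± 0.227 (SD, n = 3). PARP12 and PARP6, at 13.7 ± 0.267 and 10.2 ± 0.282 CPM per kb, stood apart from their neighbours in the order.

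In DMSO the order began with ZC3HAV1 at 15.7 ± 2.27 CPM per kb, PARP4 at 11.1 ± 1.87 and PARP6 at 6.26 ± 1.22, and ended with PARP14 at 0.152 ± 0.037. Between them DTX3L, PARP8, PARP11, PARP10 and PARP12 ran from 2.17 ± 0.385 down to 1.04 ± 0.149 CPM per kb, and each overlapped with the next in the order. PARP9, at 0.717 ± 0.0825 CPM per kb, overlapped with neither neighbour. PARP14 took 13.4 to 15.3% of the summed CPM of the 10 members in the olaparib libraries and 0.454 to 0.638% in the DMSO libraries. The lengths are unions of all annotated exons, which need not be the transcripts these cells made.

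The protein-coding genes near each member are given by position, with no test of a difference. Beside their counts stand the shares of all tested genes, 35.4% called higher and 40.3% lower. Within 500 kb of PARP14, 8 protein-coding genes other than members were tested, of which 5 were called higher and 0 lower, with a median log2 fold change of 0.64. The largest of these was HSPBAP1 at 1.77, below PARP9, DTX3L and PARP14. PARP15, next to PARP14 at 41.6 kb, held 3 counts over the olaparib libraries and 0 in DMSO and was not tested. Around PARP12, 4 of 6 tested genes were lower and 0 higher, so PARP12 stood alone as a called rise there.

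Several neighbours of PARP11 also lacked counts in olaparib. Of 5 protein-coding genes in the table within 500 kb of it, 4 had no count in olaparib. Each olaparib library held a count for only 20359 to 20900 of the 39396 genes in the table. Of the 5 neighbours 3 were tested, and CRACR2A and CCND2 were those without an olaparib count (3.40% of all tested genes). CCND2, which encodes cyclin D2, was at 0 in all olaparib libraries and at 49.8, 46.4 and 50 CPM in the DMSO libraries (at least 1430-fold lower). CRACR2A, a calcium sensor, was at least 254-fold lower, while PRMT8 and FGF23 held 6 and 16 counts in DMSO and were not tested. TIGAR, a p53 target next to CCND2, kept 6.41 CPM in olaparib against 10.8 CPM in DMSO (log2 -0.75, edgeR adjusted p = 0.00333). Near PARP4, PARP8 and PARP6, the tested neighbours numbered 2, 1 and 10, of which 2, 0 and 4 were higher and 0, 0 and 2 lower; 3 of those near PARP6 had a log2 fold change above it. PARP10 lies in a dense stretch of chromosome 8 where 25 of 49 tested neighbours were higher and 9 lower. GSDMD, which encodes the pore-forming gasdermin D, SPATC1 and SCX exceeded PARP10 there, with log2 fold changes of 5.32, 4.92 and 4.01 against 3.83. Near ZC3HAV1, 4 of 10 tested neighbours were higher and 4 lower, and KIAA1549 at 1.83, UBN2 at 1.51 and ZC3HAV1L at 0.86 exceeded it.

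**Figure D3:**
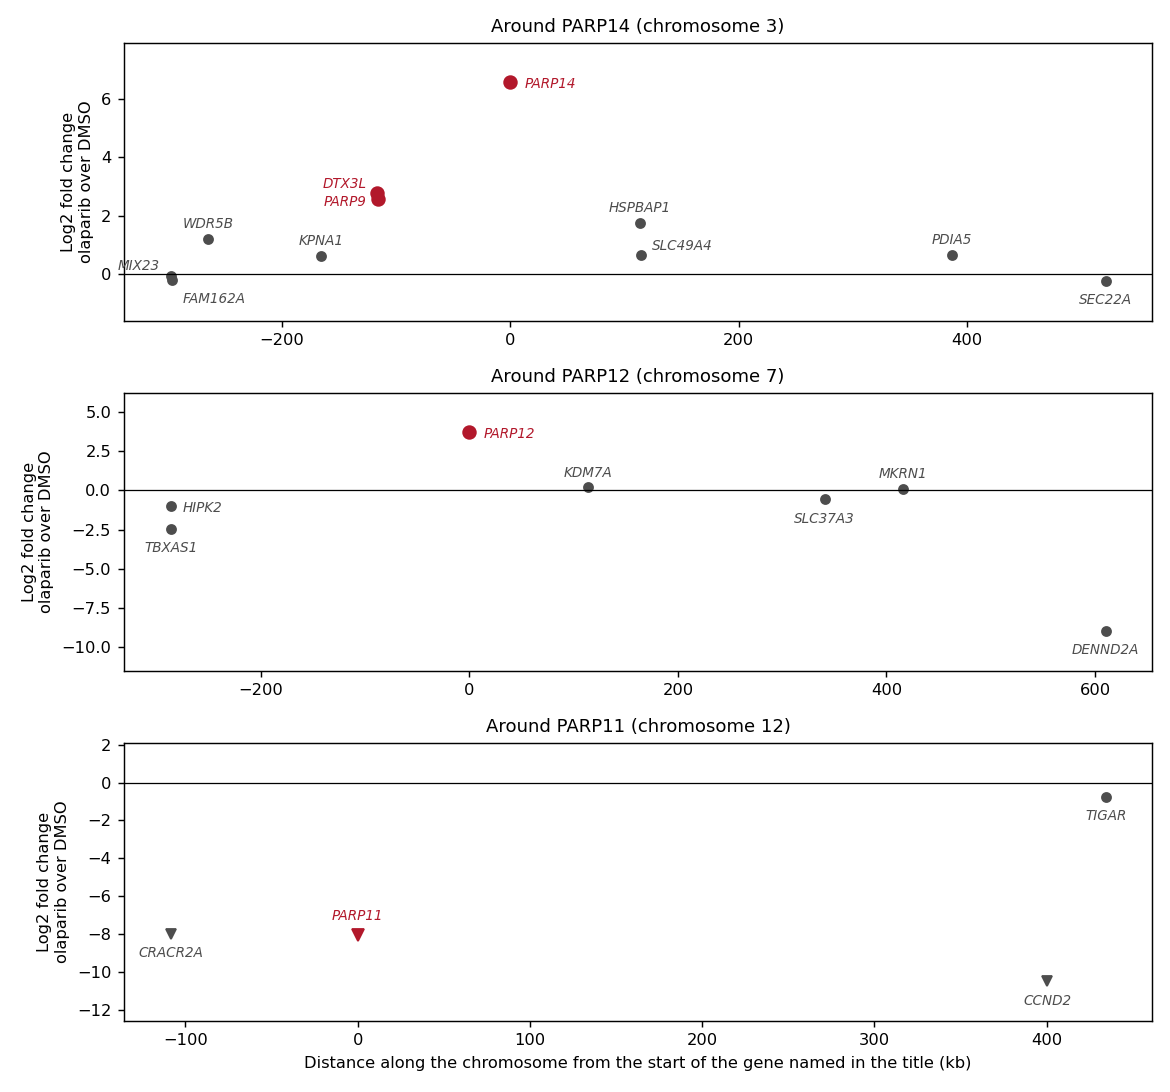
Log2 fold change of olaparib over DMSO (vertical axis) for tested protein-coding genes against the distance along the chromosome of their start from that of PARP14, PARP12 or PARP11 (horizontal axis, kb); members are red, other genes grey, and triangles mark bounds of genes without an olaparib count. PARP14 at 6.56 stands above all genes near it, and PARP11, CRACR2A and CCND2 share the loss of all counts.

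Among the 8 other PARP family genes, 7 were tested, of which 2 were called higher and 2 lower. For this list and those below, 35.4% of all tested genes were called higher and 40.3% lower. TIPARP, a target of the aryl hydrocarbon receptor, was 4.92-fold higher, at 220 ± 6.72 CPM in olaparib and 44.7 ± 13.9 CPM in DMSO (edgeR adjusted p = 3.84e-07). PARP1, which builds chains at DNA breaks, was lower, at 443 ± 32.7 CPM in olaparib and 989.9 ± 173 CPM in DMSO. PARP2, PARP3 and TNKS were not called, with log2 fold changes of -0.17, 0.18 and 0.14. The call of TNKS2 (log2 0.31, adjusted p = 0.0371) was lost with library size alone as the scaling (adjusted p = 0.115) and without each of the libraries except DMSO replicate 3 (adjusted p 0.0687 to 0.121). The call of PARP16 (log2 -0.47, adjusted p = 0.00921) did not hold when olaparib replicate 2 (adjusted p = 0.0546) or olaparib replicate 3 (adjusted p = 0.0588) was left out.

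Genes of ADP-ribose readers and hydrolases moved in both directions, with 4 of 8 higher and 2 lower. ADPRH, which cleaves ADP-ribose from arginine, held 548 counts in olaparib and 2 in DMSO; the ratio per scaled library was 363, with a 95% counting interval of 100.1 to 3006. Both DMSO counts were in DMSO replicate 1. MACROD2, a macrodomain hydrolase of the single unit, was higher by log2 1.65, and PARG, which cleaves chains rather than the single protein-linked unit, by 0.69. ADPRS, which cleaves it from serine, and MACROD1 were lower, with log2 fold changes of -1.03 and -0.73 (edgeR adjusted p = 6.75e-06 and 0.000994).

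Of 10 genes that supply NAD, 9 were tested, and 4 were higher and 4 lower, near the shares over all tested genes. NAPRT, which starts NAD synthesis from nicotinic acid, rose to 108.3 ± 3.80 CPM in olaparib, against 12.3 ± 1.37 CPM in DMSO. QPRT, which feeds NAD synthesis from tryptophan, held 6 counts in olaparib and 11365 in DMSO (log2 -10.41, and -11.31 without olaparib replicate 2). NMNAT1, NMNAT2 and NMNAT3, which form NAD in its last step, all fell, with log2 fold changes of -1.67, -4.21 and -1.85. NAMPT, the rate-limiting enzyme of the salvage route, was not called (log2 -0.12).

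In the list of ZC3HAV1 cofactors and RNA decay genes, 3 of 11 were higher and 6 lower. XRN1, the exonuclease that degrades from the 5′ end, was higher by log2 1.37 ± 0.15. DHX30, a helicase known to bind ZC3HAV1, was lower, with a log2 fold change of -1.57 ± 0.10, as were the decapping factor DCP1A and the exosome subunits EXOSC7 and EXOSC5 at -1.12, -1.0 and -0.94 (edgeR adjusted p = 4.77e-08 for DHX30, 1.03e-06, 0.000107 and 2.01e-05 for the others).

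Genes of the interferon system did not move as a block. Of 8 interferon ligand genes, 3 could be tested. IFNB1 had no count in olaparib and stood at 3.56, 7.18 and 7.08 CPM in the DMSO libraries, at least 170-fold lower in olaparib. IFNL1 likewise had none with olaparib and averaged 1.68 ± 1.10 CPM with DMSO (at least 45.8-fold lower), while IFNE was higher, at 3.17 ± 0.517 CPM in olaparib and 0.513 ± 0.0508 CPM in DMSO (edgeR adjusted p = 9.27e-06). IFNB1 and IFNL1 thus had counts only in the DMSO libraries, where PARP14, PARP12, PARP10, PARP9 and DTX3L were lower than in olaparib. A link between the ligand genes and the members was not tested.

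Of 6 interferon receptor genes, 0 were called higher and 3 lower, with log2 fold changes of -1.64 for IFNGR2, -0.38 for IFNGR1 and -0.30 for IFNAR1 (edgeR adjusted p = 1.5e-07, 0.00905 and 0.0138). Without olaparib replicate 2, IFNAR1 (adjusted p = 0.0984) and IFNGR1 (adjusted p = 0.0593) were not called, nor was IFNGR1 without olaparib replicate 3 (adjusted p = 0.0601). The remaining receptors had log2 fold changes of -0.18 for IFNAR2 (95% interval -0.84 to 0.49), -0.20 for IFNLR1 (-0.57 to 0.16) and 0.51 for IL10RB (-0.35 to 1.38). IFNLR1 was called without DMSO replicate 2 (log2 -0.36, adjusted p = 0.0447).

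Among JAK, STAT and IRF genes, 8 of 13 were higher and 3 lower. STAT2, a part of the factor that binds the ISRE, was higher at 158 ± 20.2 CPM in olaparib and 62.0 ± 7.28 CPM in DMSO (log2 1.35 ± 0.12), as were IRF7 (log2 1.55 ± 0.19) and IRF2 (log2 1.16 ± 0.14), with edgeR adjusted p = 8.19e-07, 1.3e-05 and 9.13e-06. IRF8 was without a count in every olaparib library and averaged 6.78 ± 0.831 CPM with DMSO, so it was at least 199.9-fold lower. BATF2 was lower (log2 fold change -1.92) and was not called without DMSO replicate 1 (log2 -1.29, adjusted p = 0.0503). Of 6 feedback inhibitors, 4 were higher and 2 lower. PTPN6 and SOCS3 were higher by log2 3.59 and 2.73, PTPN2 by 0.79 and PIAS1 by 0.46, and SOCS1 and USP18 were lower, with log2 fold changes of -2.61 and -2.13 (edgeR adjusted p = 0.000155 and 2.5e-08).

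Interferon-stimulated genes outside the family split, with 28 of 55 higher, 14 lower, 10 not called and 3 not tested. Olaparib replicate 1 stood above the other olaparib libraries in the sum of the list, at 4429 CPM against 3499 and 3508 CPM in olaparib replicates 2 and 3, and the DMSO libraries were at 2646 to 2950 CPM. ISG15, a ubiquitin-like modifier chosen after its values were seen, was at 401, 107 and 112 CPM in olaparib, against 276, 592 and 452 CPM in DMSO, and was not called. Without olaparib replicate 1, the number of interferon-stimulated genes called higher was 27 and the number of interferon-stimulated genes called lower was 20. PSMB8, an immunoproteasome subunit, held 11476 counts in olaparib and 19 in DMSO (log2 9.61, and 10.36 without DMSO replicate 1). RSAD2, the antiviral enzyme viperin, stood at 2.30, 0.392 and 0.425 CPM in olaparib, against 18.6, 38.5 and 41.4 CPM in DMSO (log2 -4.98, and -6.32 without olaparib replicate 1). EPSTI1 and CMPK2 had no count in olaparib and were at least 75.4-fold and 44.0-fold lower. TRIM22 held 4 counts in olaparib and 144 in DMSO. The median log2 fold change was 0.54 over the 52 tested genes, against 2.29 over the members and -0.09 over all tested genes. The part of the marker differences between the groups in these results was not tested.

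**Figure D4:**
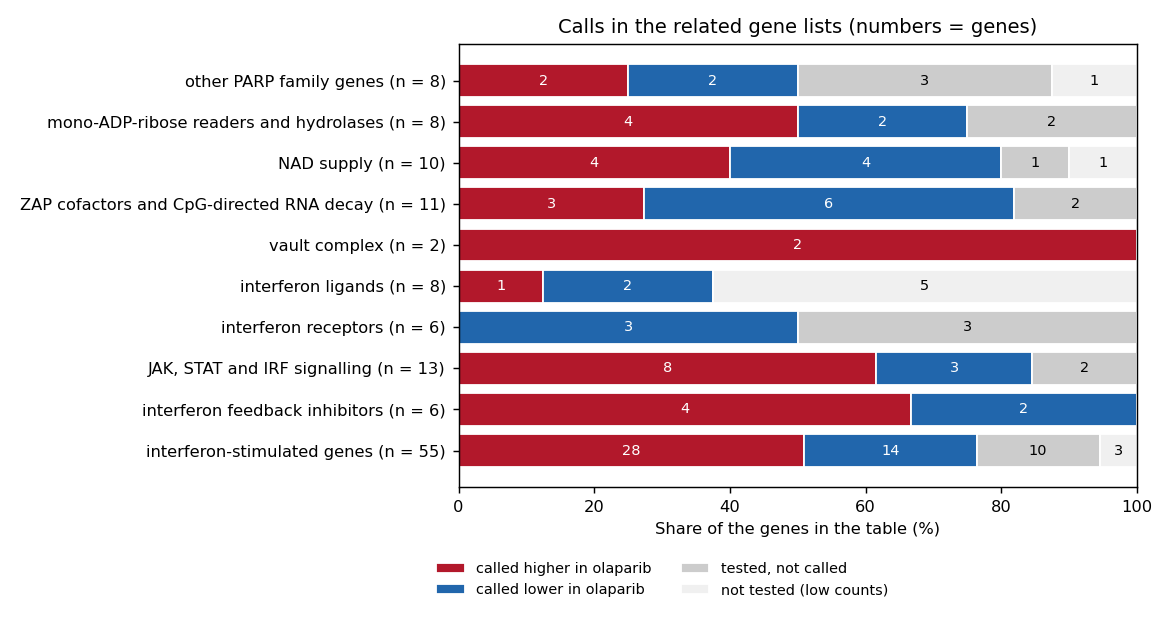
Share of the genes of each related list (horizontal axis, %) called higher in olaparib (red), called lower (blue), tested but not called (grey) or not tested for low counts (pale), with the number of genes in each segment. The vault genes are all higher, no interferon receptor gene is called higher, and interferon-stimulated genes hold 28 higher and 14 lower.

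Across genes outside the family, those with an ISRE core were called in both directions. Of 28 tested interferon-stimulated genes outside the family whose window held the core, 13 were called higher and 11 lower; of 13 without it, 10 were higher and 2 lower. Over all tested genes with a window, 43.6% of 491 genes with the core were called higher, against 33.0% of 12026 without it. The other listed PARP9 start had no core in its window, and PARP10 and PARP4, with log2 fold changes of 3.83 and 2.01, had no window. The members with the core (PARP14, PARP9, DTX3L and PARP12) had log2 fold changes of 2.57 to 6.56, and those with a window but no core (ZC3HAV1, PARP8, PARP6 and PARP11) were at 0.68, 1.27, 0.70 and a bound of -8.02. No test was made of this difference.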

How the data were processed

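What the authors deposited is 1 table of raw counts per gene symbol, with a column for each of the 6 libraries. fastp, STAR and hg38 are named in the submitters' processing notes; no source used here names the counter, its strand mode or the gene models. Columns and replicate numbers were matched by sample title, and 0 columns were left over. Genes with 2 counts outnumbered those with 1 in each library, a pattern that counting each read of a pair separately would give, so floors and intervals cover counting error only and may be too narrow.

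edgeR 4.0.16 under R 4.3.3 was run with its default filter on low counts, TMM scaling and robust quasi-likelihood fits with group as the only term. Benjamini-Hochberg adjusted p-values were called at 0.05. Standard errors of log2 fold changes come from the F statistic. CPM are counts scaled to a TMM-adjusted library of 1000000, given as mean ± SD over 3 libraries. A gene without a count in a group was given a bound from a floor of 3 counts over that group. Ratios within libraries used a pseudocount of 0.5 CPM. Within groups, libraries differed beyond sampling noise (chi-square per degree of freedom 4.74 to 68.6, over genes with at least 20 counts). The fit was tested on simulated counts in which 200 of 17078 genes were changed. Recovery of changed genes was 38% at 1.5-fold, 86% at 2-fold and 100% at 8-fold, and 15 of 176 calls were false. Far fewer genes changed there than were called between these groups, so the simulation cannot show how the fit performs here. Positions and exon lengths came from GENCODE release 29 and promoters from RefSeq.

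Named genes were every member, up to 5 called genes with the largest change and no overlap between groups from each list, all genes of lists with up to 6 genes, and neighbours within 500 kb; a few other genes of the PARP, NAD and marker lists were named after their values were seen. The members and lists were chosen with earlier results of these data known. Alternatives were DESeq2 1.42.0, limma-voom (limma 3.58.1), RLE size factors, library size alone, a filter of 1 count and of 1 CPM in 3 libraries, the replicate number as a block, and the loss of each library in turn; division of counts by 2 was added after seeing the data.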

Additional observations from a re-analysis of the deposited data

How the results depend on the processing

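All 10 members kept their direction and call under each of the 14 alternatives, with adjusted p of at most 0.0102 (ZC3HAV1 without DMSO replicate 3); PARP14 stayed between log2 6.42 and 6.76. Of 67 other named genes, 59 did so in every alternative that tested them, since some low genes were left untested by some filters. IFNAR2, which was not called, turned to 0.0022 without olaparib replicate 3 (-0.38 to 0.0022 over the libraries left out). Leaving out 1 library at a time gave 9 members higher and 1 lower each time, 5711 to 6191 genes higher and 6586 to 7017 lower, 1 to 3 other PARP family genes higher and 1 to 2 lower, and 1 to 4 interferon receptors lower. With library size alone, 1 other PARP family gene was higher. Interferon ligands called lower numbered 4 with DESeq2 and with genes of at least 1 count, and 1 with the filter of 1 CPM or, added after seeing the data, counts divided by 2; those settings test more or fewer low genes. With a pseudocount of 2, the difference in log2 ratio was 3.19 for PARP14 to PARP9 and -1.94 for PARP10 to PARP14. A window of 1 Mb takes in more genes: neighbours called higher were then 7 for PARP4, 10 for PARP9, 4 for PARP12, and 9 for PARP14 and DTX3L, and neighbours called lower were 2 for PARP4, 1 for PARP9, PARP14 and DTX3L, 18 for PARP10, 12 for PARP11 and 10 for PARP12.

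Libraries with the same number did not deviate together (correlations of -0.09, -0.042 and -0.0017 over 17078 genes, and no olaparib library correlated best with its own number), so the numbers pair nothing. With the replicate block, 5797 genes were higher and 6629 lower, and 9 members were higher and 1 lower. PARP14 in DMSO rests on 37 to 89 counts per library, and the 0 counts of PARP11 limit its level only to the floor.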

Other observations

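The tested genes whose log2 CPM over the 6 libraries lay closest to that of PARP14 (Euclidean distance, 5 genes) were NEGR1, a neural adhesion protein, at a distance of 1.06, FRK, a tyrosine kinase, at 1.44, SCNN1A, a sodium channel subunit, at 1.47, ZNF469 at 1.56 and MUC16, a mucin, at 1.63. All 5 were low in DMSO and high in olaparib: NEGR1 stood at 112 ± 6.68 CPM in olaparib and 1.39 ± 0.558 CPM in DMSO, and MUC16 at 84.1 ± 13.1 CPM in olaparib and 1.38 ± 0.431 CPM in DMSO (SD, n = 3 each). None is on the list of interferon-stimulated genes. The likeness describes these libraries only, since the groups set most of each profile.

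Markers of other cell types also differed between the groups. Of 5 endothelial markers, CDH5 and PECAM1 were higher and KDR lower, with summed levels of 23.0 to 24.7 CPM in olaparib and 1.33 to 1.69 CPM in DMSO. CDH5 made up most of the olaparib sums (20.5 ± 0.106 CPM in olaparib, 0.128 ± 0.182 CPM in DMSO). VWF, KDR and TEK stayed below 1 CPM in both groups. Of 7 fibroblast markers 1 was higher and 4 lower, with summed levels of 103 to 136 CPM in olaparib and 93.8 to 101.1 CPM in DMSO. COL1A1, the marker called higher, made up most of these sums (113 ± 18.4 CPM in olaparib, 68.4 ± 3.39 CPM in DMSO), while LUM was at 0.209 ± 0.142 CPM in olaparib and 18.9 ± 0.876 CPM in DMSO and COL3A1 at 0.249 ± 0.0669 CPM in olaparib and 3.28 ± 0.621 CPM in DMSO. Of 8 blood markers 0 were higher and 2 lower; the call of HBA1 was lost with DESeq2 (adjusted p = 0.0898), with genes of at least 1 count (0.0538) and without olaparib replicate 1 (0.0839) or 3 (0.0946). CD3E and HBB had no count in any library, and the sum stayed between 3.29 and 4.28 CPM in olaparib and between 5.05 and 6.22 CPM in DMSO. The part of these differences in the results on the PARP genes was not tested.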
